A study of Homo sapiens with 32 samples.

Results

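Megakaryocytes are the bone marrow cells that shed platelets, and some acute myeloid leukaemia (AML) cell lines carry part of their gene programme. Described here are 10 genes of that programme: ITGA2B, ITGB3, GP5, GP9, PF4, PPBP, TUBB1, VWF, RAB27B and FLI1. They were chosen by name, with earlier results of these data known. They are 10 of the 19775 genes with a single symbol in the array's annotation and were read by 29 probe sets. For each gene the probe set with the highest mean over the lines was used, and all 10 passed the filter on low values that left 15455 genes for testing.

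Total RNA of 32 established human AML cell lines was hybridised to Affymetrix arrays, 1 array per line, with no drug treatment. A cytokine was part of the medium for 4 lines, IL-3 (5 ng/ml, in RPMI 1640) for F-36P and GM-CSF or SCF, in alpha-MEM, for OCI-AML2, OCI-AML3 and OCI-AML5. The labels name none for 21 other lines in RPMI 1640 and 4 in IMDM, and they leave out the medium of MV4-11, MOLM-16 and MOLM-13. The series was made to relate expression to the response to inhibitors of the PIM kinases, and response values were not used here.

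A maturing megakaryocyte puts adhesion receptors on its surface, fills alpha and dense granules with chemokines, clotting proteins and small molecules, and builds a marginal microtubule ring for the platelet. GATA and ETS family transcription factors switch these genes on together, GATA1 in both the erythroid and the megakaryocytic lineage and the ETS factor FLI1 on the megakaryocytic side. ITGA2B and ITGB3 form the fibrinogen receptor, GP5 and GP9 belong to the receptor for von Willebrand factor, PF4 and PPBP are alpha granule chemokines, TUBB1 is the platelet beta tubulin, VWF is the adhesive protein itself, also made by endothelium, and RAB27B is a small GTPase of granule secretion.

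Promoter windows of 4 of these genes are printed because GATA and ETS factors are the regulators described below. They come from RefSeq on the GRCh38.p14 build, run 5′ to 3′ in the direction of the gene from 250 bases before its start to 50 after, and were found for 6 of the 10 members. Capitals mark matches to GATA words (AGATAA as well as AGATAG, and likewise TGATAA as well as TGATAG) and to ETS words (AGGAAG as well as CGGAAG), each searched on both strands. The windows are chr17:44389600-44389899 (minus strand), chr3:129060529-129060828 (plus strand), chr3:194399217-194399516 (minus strand) and chr4:73988141-73988440 (minus strand).
ITGA2B: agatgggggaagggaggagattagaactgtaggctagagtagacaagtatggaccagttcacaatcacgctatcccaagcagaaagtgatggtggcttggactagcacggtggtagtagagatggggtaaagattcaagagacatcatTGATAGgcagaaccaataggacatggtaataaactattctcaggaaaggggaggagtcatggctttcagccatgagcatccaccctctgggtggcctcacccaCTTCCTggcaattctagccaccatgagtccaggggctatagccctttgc
GP9: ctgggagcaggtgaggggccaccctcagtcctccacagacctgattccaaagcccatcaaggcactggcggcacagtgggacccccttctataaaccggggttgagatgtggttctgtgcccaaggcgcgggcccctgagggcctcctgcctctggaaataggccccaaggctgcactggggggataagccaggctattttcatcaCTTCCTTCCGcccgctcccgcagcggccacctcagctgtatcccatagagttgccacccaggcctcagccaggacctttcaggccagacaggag
GP5: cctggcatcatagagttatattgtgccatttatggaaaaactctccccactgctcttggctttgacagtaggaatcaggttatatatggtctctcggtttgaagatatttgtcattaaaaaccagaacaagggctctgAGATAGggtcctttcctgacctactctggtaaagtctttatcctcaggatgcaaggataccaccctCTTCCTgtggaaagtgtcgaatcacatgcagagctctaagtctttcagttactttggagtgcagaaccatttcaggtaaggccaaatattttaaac
PPBP: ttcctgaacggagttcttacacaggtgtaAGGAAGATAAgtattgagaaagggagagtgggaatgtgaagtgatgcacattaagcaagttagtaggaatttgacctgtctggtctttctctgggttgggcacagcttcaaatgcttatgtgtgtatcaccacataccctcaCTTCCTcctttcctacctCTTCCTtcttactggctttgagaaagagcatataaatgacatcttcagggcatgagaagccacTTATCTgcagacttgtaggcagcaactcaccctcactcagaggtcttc
ITGA2B and GP5 each held 1 GATA and 1 ETS word. GP9 held 2 ETS words, which overlap each other, and 0 GATA words. PPBP held 2 GATA and 3 ETS words, and 1 of the GATA words overlaps an ETS word. RAB27B held 1 of each in the first of its 2 windows and 0 in the second, and the TUBB1 window held 0 of either. Among 35116 promoter windows of the same length, 24.97% held a GATA word, 46.89% an ETS word and 10.48% both. A match describes the letters and shows no binding. ITGB3, PF4, VWF and FLI1 had no entry.

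Levels are given as log2(signal + 16), with a median of 6.73 over all probe sets and arrays. No detection call was used, so a gene is called above the median when it exceeded its own array's median and well above it at 2 log2 units or more. The array medians of signal were 68.2 to 115.4 on 30 arrays, 198.4 for NOMO-1 and 243.3 for GF-D8, and low levels read higher on those 2. The GAPDH 3′ to 5′ ratio, which rises as RNA degrades, was 0.871 to 1.24 on 24 arrays and 2.42 to 7.08 on 8. Those 8 were the arrays of GDM-1, HL-60, ML-2, MOLM-13, NB-4, THP-1, NOMO-1 and GF-D8. In RNA of whole cultures, fewer expressing cells and less RNA per cell cannot be told apart. Probe sets differ in response, so levels are compared between lines and not between genes. Neighbouring lines were read against a yardstick of 2.09, the 95th percentile over genes of the absolute log2 difference within HL-60 and PLB-985 (2.04 alone) and within KG-1 and KG-1A (2.15 alone, GAPDH ratios of 0.922 and 0.963). Each of these pairs derives from 1 patient, and for fits and correlations each was averaged, which left 30 units.

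The programme was carried most fully by HEL. It had 8 of the 10 genes well above the array median and 9 above the median, all but VWF. SET2 had 5 well above and MO7E, KMOE-2 and HNT-34 had 4 each, while 10 lines had 3, 8 lines had 2 and 9 lines had 1. MOLM-16 had 3 well above but, like HEL and SET2, 9 above the median. In all 9 lines with 1 gene well above, that gene was FLI1. The counts of HEL, SET2, MO7E, KMOE-2 and HNT-34 include ITGA2B, RAB27B and FLI1, which were well above the median in 20, 18 and 30 lines. The share of all genes well above the median in a line was not worked out. These counts therefore compare lines and do not show how unusual a count is.

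**Figure D1:**
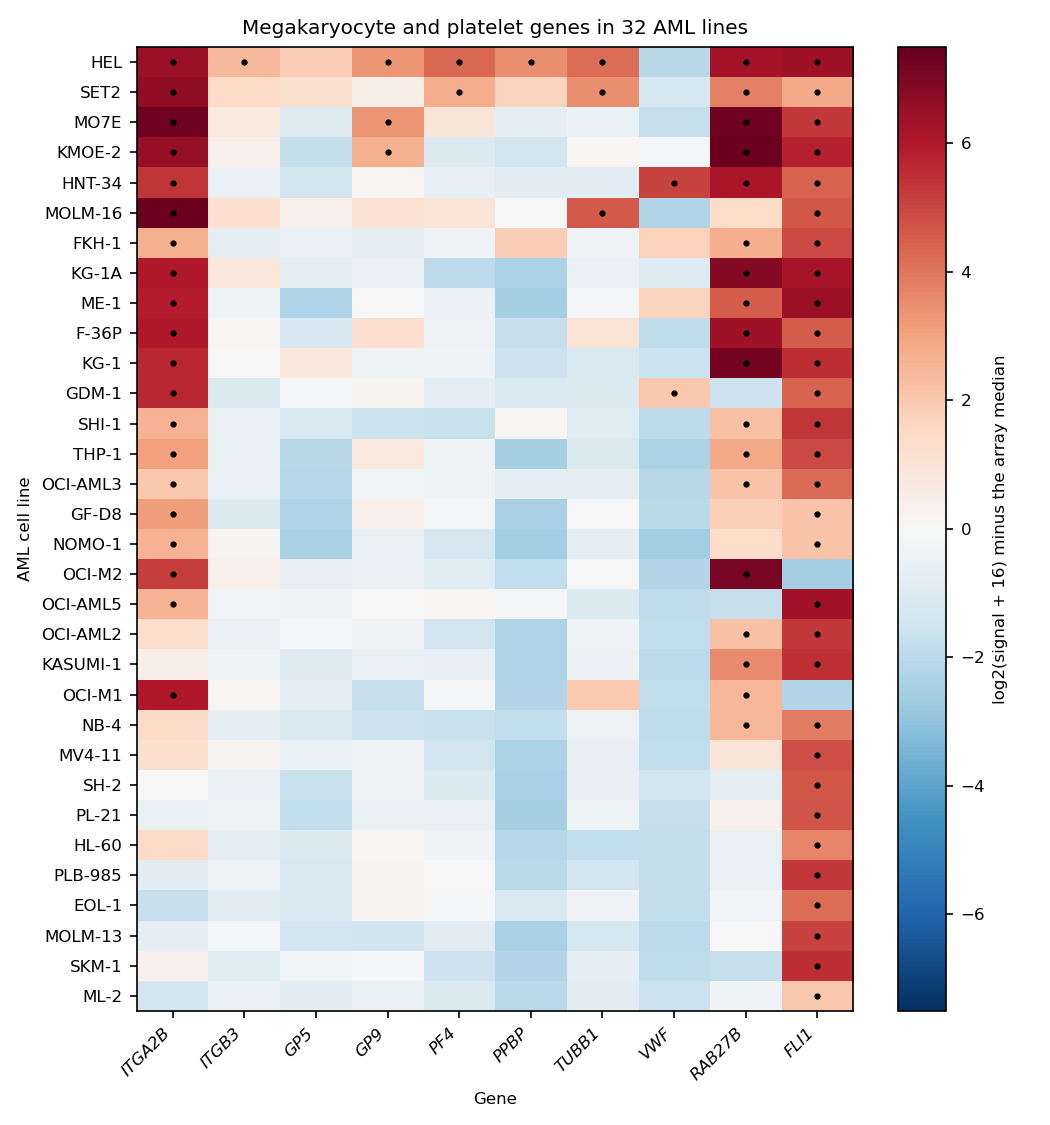
Level of each of the 10 genes (columns) in each of the 32 lines (rows, ordered by the number of genes well above the array median), as log2(signal + 16) minus the median of that array, with a dot at 2 or more. ITGA2B, RAB27B and FLI1 are well above the median in 20, 18 and 30 lines, the other 7 genes in at most 3.

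ITGA2B, the alpha chain of the fibrinogen receptor, was well above the array median in 20 lines. Its lowest level was 4.68 in EOL-1, its median 9.75 and its highest 13.93 in MOLM-16, a 611-fold range on the scale of signal plus 16. MO7E followed at 13.90, SET2 at 13.45, KMOE-2 at 13.11 and HEL at 12.93, and these neighbours lay within the yardstick. The widest step between neighbours was 0.78, between OCI-M2 at 11.91 and GF-D8 at 11.13. Neighbours among 32 ordered lines tend to lie close, so a step under the yardstick does not show that lines are alike. The related lines HL-60 and PLB-985 differed by 2.42, at 7.96 and 5.54, which is above the yardstick. Their GAPDH ratios were 7.08, the highest of all arrays, and 0.933, and the part of this in the difference was not tested. Its SD over the 30 units was 2.88, and 0.52% of the 15455 genes varied more.

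ITGB3, the beta chain of the same receptor, was lowest at 5.55 in SKM-1 on the probe set used, had a median of 6.38 and was highest at 8.86 in HEL, then 8.22 in SET2, 7.93 in NOMO-1, whose array median is high, and 7.83 in MOLM-16. Only HEL was well above the array median, and 53.82% of genes varied more than its SD of 0.77. The 7 ITGB3 probe sets did not read alike, with correlations of 0.181 to 0.844 between the other 6 and the one used. On the probe set with the highest of these, levels ran from 4.22 to 10.17, again highest in HEL, so how far ITGB3 varied depends on the probe set.

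GP9 and GP5 encode subunits of the receptor that holds platelets to von Willebrand factor. GP9 was lowest at 4.85 in OCI-M1, had a median of 6.56 and was highest at 9.92 in MO7E, with HEL at 9.71 and KMOE-2 at 9.24. Those 3 lines were well above the array median. GP5 was lowest at 4.42 in ME-1, had a median of 5.66 and was highest at 8.27 in HEL and 7.98 in SET2, and 0 lines were well above the median. MO7E and KMOE-2, 2 of the 3 lines with the highest GP9, had GP5 at 5.67 and 4.80. The other GP5 probe set had r = 0.507 with the one used over 32 lines and was highest in GF-D8, at 8.27.

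The granule chemokines PF4 and PPBP lie next to each other on chromosome 4 in RefSeq's gene order. PF4 was lowest at 4.74 in KG-1A, had a median of 6.16 and was highest at 10.74 in HEL, followed by SET2 at 9.50. MO7E had 7.56 and MOLM-16 7.54, and GF-D8 at 7.90 lay below its own array's median. PPBP was lowest at 4.10 in PL-21, had a median of 4.81 and was highest at 9.90 in HEL, followed by FKH-1 at 8.89 and SET2 at 8.46. FKH-1 was high for PPBP alone of the pair, with PF4 at 6.77. MO7E and KMOE-2 had PPBP at 5.96 and 5.19.

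TUBB1, the tubulin of the platelet's microtubule ring, was highest in 3 lines. It was 11.20 in MOLM-16, 10.61 in HEL and 10.28 in SET2, then 8.50 in OCI-M1, a step of 1.79 that stays under the yardstick. The median was 6.15 and the lowest level 4.69, in HL-60. MO7E, with the second highest ITGA2B, had TUBB1 at 6.12. The other TUBB1 probe set had r = 0.685 with the one used over 32 lines. It was also highest in MOLM-16, but at 7.70.

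VWF was above the array median in 4 lines, of which FKH-1 alone was among the top 3 for either chemokine. It was 11.80 in HNT-34, 8.91 in GDM-1, 8.79 in FKH-1 and 8.40 in ME-1, against a median of 4.78 and a lowest level of 4.33 in MOLM-16. Only HNT-34 and GDM-1 were well above the array median, GDM-1 by 2.01, while FKH-1 and ME-1 exceeded it by 1.75 and 1.67. The step of 2.88 below HNT-34 exceeds the yardstick. The other VWF probe set had r = 0.417 with the one used over 32 lines and was highest in GF-D8, at 9.04, so the order of lines depends on the probe set. HNT-34 had 5 of 12 endothelial markers well above the array median, FKH-1 and ME-1 had 4 and GDM-1 had 3. HEL, OCI-M2, KG-1, KG-1A and KMOE-2 had 4 as well, and F-36P and SET2 had 3. In each of these lines VWF lay under the array median, as in HEL at 4.36. The endothelial cadherin CDH5 was 9.95 in HNT-34 and 8.71 in FKH-1, the top 2 lines. In GDM-1 and ME-1 it was 6.85 and 6.29, under the array medians of 6.903 and 6.735. In HNT-34, 7 of the 12 markers lay above the array median of 6.725, while others such as KDR (5.13) and NOS3 (4.36) lay under it. Whether these markers bear on the VWF level was not tested.

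RAB27B covered almost as wide a range as ITGA2B. It was lowest at 4.70 in SKM-1, had a median of 9.05 and was highest at 13.92 in MO7E, with KMOE-2 at 13.91, OCI-M2 at 13.81, KG-1A at 13.64 and KG-1 at 13.60. MOLM-16, the line with the highest ITGA2B, had 7.97, and GDM-1, with ITGA2B at 12.58 and a GAPDH ratio of 6.66, had 5.35. Its paralogue RAB27A, the GTPase of lytic and secretory granules in other blood cells, was well above the array median in 31 of 32 lines and lowest at 7.87 in KMOE-2. Over the 30 units RAB27A had r = -0.512 with RAB27B and r = -0.695 with ITGA2B.

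**Figure D2:**
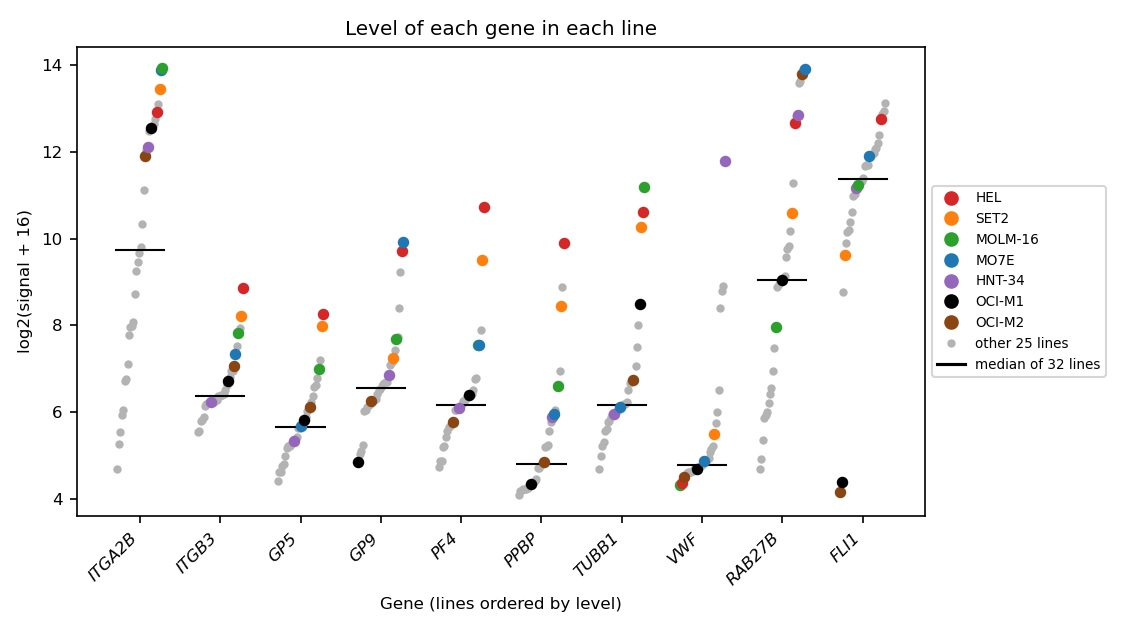
Level of each of the 10 genes, as log2(signal + 16), in each of the 32 lines ordered by level, with 7 lines coloured and the median as a bar. OCI-M1 and OCI-M2 lie apart at the bottom for FLI1 at 4.38 and 4.15, and HNT-34 lies apart at the top for VWF at 11.80.

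FLI1, the ETS factor, was well above the array median in 30 of 32 lines, with a median of 11.37 and a highest level of 13.12 in ME-1. OCI-M1 at 4.38 and OCI-M2 at 4.15 were the exceptions, and the step of 4.40 up to ML-2 at 8.78 exceeds the yardstick. On the other 2 probe sets that read FLI1 well in most lines, OCI-M1 had 5.80 and 4.94 and OCI-M2 had 5.75 and 5.00, while the lowest of the other 30 lines were 7.05 and 6.48. The remaining 3 FLI1 probe sets exceeded the array median in at most 4 lines and did not separate these lines.

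Both lines had high ITGA2B, at 12.55 in OCI-M1 and 11.91 in OCI-M2. GATA1, the erythroid and megakaryocytic factor, was highest of all lines there, at 11.25 in OCI-M1 and 11.36 in OCI-M2. KLF1, the erythroid factor, was 11.82 and 12.64, and 6 and 7 of the 9 erythroid markers were well above the array median. High KLF1 was not particular to them. It was 13.35 in SET2, 12.82 in MOLM-16 and 11.99 in HEL, where FLI1 was 9.63, 11.23 and 12.77. RAB27B was 9.04 in OCI-M1 and 13.81 in OCI-M2. GP9 was lowest of all lines in OCI-M1.

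**Figure D3:**
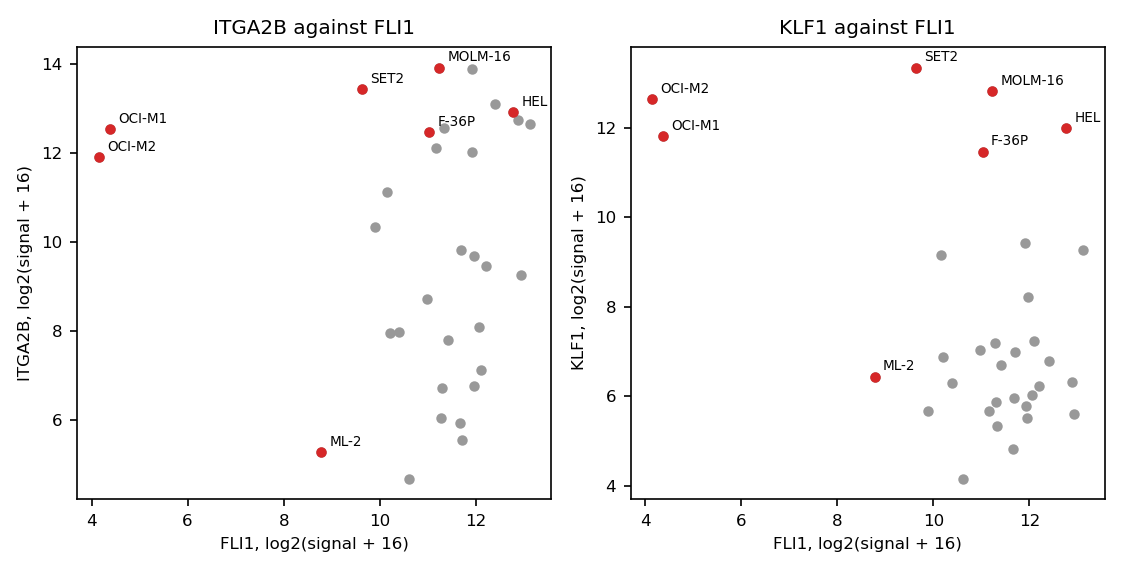
ITGA2B (left) and KLF1 (right) against FLI1, each as log2(signal + 16), with 1 point per line for 32 lines and 7 lines named in red. OCI-M1 and OCI-M2 have FLI1 at 4.38 and 4.15 with ITGA2B at 12.55 and 11.91.

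Erythroid markers were high in some of the lines with many platelet genes and not in others. Of the 9 measured, 8 were well above the array median in SET2, 6 in HEL, 6 in MOLM-16, 7 in F-36P and 4 in MO7E. KMOE-2 and HNT-34 had 2 each, a count they share with most lines, since 20 lines had 2 and 5 had 1. HEL, SET2 and MOLM-16 were among 8 lines with 0 of the 6 neutrophil granule markers well above the median, and MO7E had 2. The others with 0 were F-36P, KG-1A, OCI-M1, OCI-M2 and HNT-34. CA1, an erythroid carbonic anhydrase, was 14.54 in HEL. The part of the erythroid genes in the levels of the members was not tested.

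The 10 genes did not vary as 1 block. Of their 45 pairs, 36 had a positive r over the 30 units and 17 had r over 0.5. The median r was 0.343 and the median Spearman's rho 0.263. Of all tested genes, 0.524% (with GP5) to 4.717% (with ITGA2B) had r over 0.5 with a member. The median r with all genes ran from -0.02 (FLI1) to 0.038 (VWF). These are descriptions across lines that share the platform and its scaling. The closest by r were ITGB3 with TUBB1 (r = 0.774, rho 0.58) and ITGB3 with PF4 (0.749, rho 0.438). PF4 with PPBP (0.748, rho 0.565) and PF4 with TUBB1 (0.742, rho 0.422) came next. Without HEL and SET2, a choice made after seeing the data, the median r was 0.192. These pairs then had r = 0.597, 0.452, 0.435 and 0.484, in the order named. By rho the closest was ITGA2B with ITGB3 (rho 0.68, r = 0.626, and r = 0.601 without HEL and SET2). ITGA2B with RAB27B (r = 0.689) had rho = 0.654.
VWF and FLI1 varied apart from the rest. VWF had a median r of 0.06 with the other 9 and r = -0.022 with PF4, a value near 0 whose sign changed with the setting. FLI1 had a median r of -0.028.

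**Figure D4:**
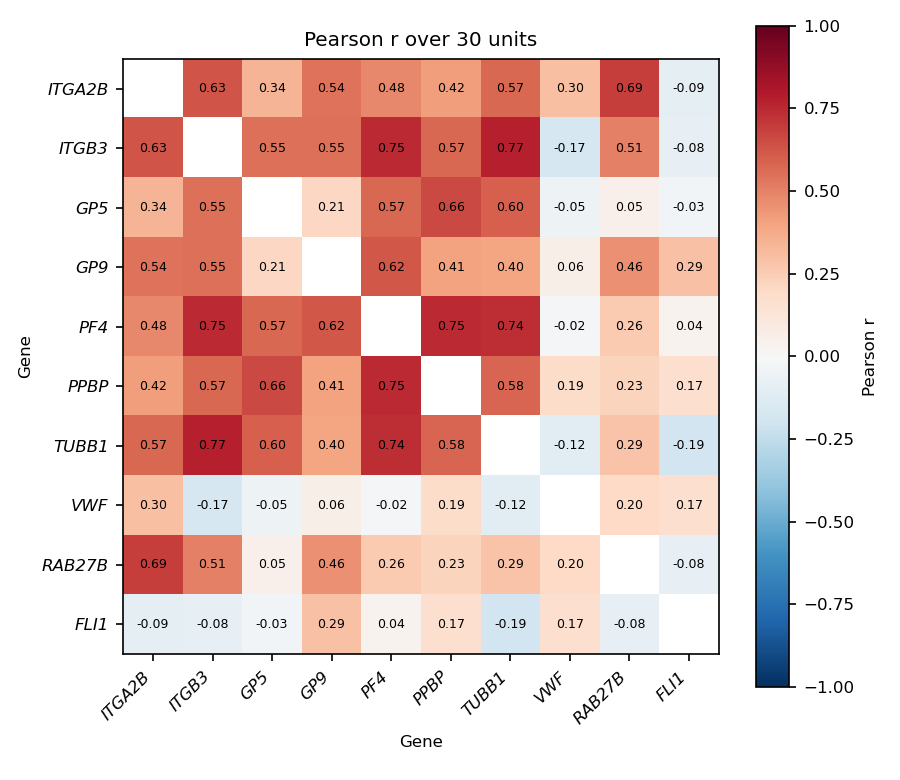
Pearson r between the log2 levels of each pair of the 10 genes over 30 units. The rows of VWF and FLI1 are pale, with r from -0.168 to 0.303 for VWF and from -0.189 to 0.294 for FLI1.

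The genes whose levels followed each member most closely differed between members. With ITGA2B they were TAL1 (r = 0.914) and GFI1B (0.891), both transcription factors of erythroid and megakaryocytic cells, then GMPR (0.877), GCSAML (0.858) and HECW2-AS1 (0.837). The lowest were the neutrophil granule protease PRTN3 (-0.906), ADPGK (-0.889) and AZU1 (-0.833). With RAB27B they were MTSS1 (0.776), MLLT11 (0.765), CAVIN2 (0.75), RHAG (0.746) and GFI1B (0.716). The median r of ITGA2B with all 15454 other tested genes was 0.019.
With PF4 the closest were EPB42 (0.842), a red cell membrane protein, MAGEA1 (0.808), PLEKHG1 (0.739), WNT11 (0.737) and CFAP161 (0.726), and with TUBB1 UBASH3A (0.867), SELENBP1 (0.864), IL7 (0.843), HERC2P3 (0.84) and EPB42 (0.837). HEL and SET2 head several of these, and the rho of PF4 with EPB42 was 0.511. With VWF they were RBPMS (0.813, rho 0.343), CDH5 (0.797, rho 0.333), SPINK2 (0.797, rho 0.534), MN1 (0.773, rho 0.577) and ACE (0.77, rho 0.403). With FLI1 they were ARHGAP30 (0.779, rho 0.541), C16orf54 (0.774, rho 0.562), DOCK5 (0.766, rho 0.448), APPL1 (0.764, rho 0.643) and SPTBN1 (0.751, rho 0.551). ZPLD1, highest in OCI-M1, was lowest with FLI1 (-0.871, rho -0.369). For each of these genes rho lay nearer 0 than r. GP9, looked at after its values were seen, had r = 0.791 with GP1BA, another subunit of its receptor, and 0.733 with the granule adhesion receptor SELP.

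Other genes of the pathway were read from lists. All 15 of 15 tested surface receptor genes had a positive r with ITGA2B, with a median of 0.457, and PEAR1 (0.818) and the ADP receptor P2RY1 (0.712) were highest. Transcription factors had 14 of 17 positive and a median of 0.512, and granule and secreted proteins 10 of 13 and 0.317, led by ANGPT1 (0.748). Cytoskeletal genes had 10 of 15 and 0.276, led by CAVIN2 (0.835), and signalling and lipid enzymes 8 of 12 and 0.288, led by PRKCQ (0.782). Granule formation genes, RAB27A among them, had 7 of 14 and 0.049.
Marker lists of other cells also moved with ITGA2B. Erythroid markers had 8 of 9 positive and a median of 0.545, endothelial markers 12 of 12 and 0.373, and stem and progenitor markers 5 of 6 and 0.267. Monocyte markers had 0 of 8 positive and a median of -0.357, and neutrophil granule markers 0 of 6 and -0.638. The platelet lists thus did not stand above the erythroid list in median r.

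Since the series concerns PIM inhibitors, each gene was fitted on the level of PIM1, PIM2 or PIM3, the kinases these drugs act on, over the 30 units with limma and Benjamini-Hochberg adjustment over all genes tested. Of the 10 members, 0 passed an adjusted p of 0.05 in any of these fits. Over all genes, 0.00647% passed for PIM1, 1.48% for PIM2 and 0.569% for PIM3. At an unadjusted p under 0.05 there were 5 members for PIM1, 7 for PIM2 and 1 for PIM3, against 7.12%, 19.4% and 18.4% of all genes. The 7 for PIM2 became 2 without HEL and 3 without SET2, where 2587 and 2722 of 15454 genes had such a p. Leaving out any other single unit gave 4 to 8. The lines were fixed by the study, and these p-values set each slope against the spread between lines around it. With 1 array per line, that spread cannot be separated from spread between arrays.

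On PIM1, 9 of 10 members had positive slopes, beside 47.5% of all genes. Since 17 of the 45 pairs of members had r over 0.5, such counts are not 10 separate observations. The median slope was 0.17 (change in a gene's log2 level for a change of 1 in that of PIM1), beside -0.004 for all genes. ITGA2B had 0.47 ± 0.22 (SE, limma adjusted p = 0.673) and TUBB1 0.30 ± 0.12 (limma adjusted p = 0.587).
On PIM2, 8 of 10 slopes were positive, beside 45.2% of all genes, with a median of 0.48 beside -0.036 for all genes. TUBB1 had 0.87 ± 0.28 (limma adjusted p = 0.0998), PPBP 0.69 ± 0.29 (0.189) and PF4 0.56 ± 0.25 (0.209). FLI1 had -1.20 ± 0.37 (limma adjusted p = 0.0847), and OCI-M1, one of the lines where it was lowest, had the highest PIM2 level, 12.06. Without OCI-M1 and OCI-M2, left out after seeing the data, the FLI1 slope was 0.01.
The count of members passing for PIM2 depends on the scaling. It was 2 with quantile normalization, where 11.5% of all genes passed, and 5 with median centring of each array, where 27.1% passed and the median slope of all genes was 0.148. Without HEL it was 1, FLI1, at -1.57 (limma adjusted p = 0.0416), beside 0.524% of all genes. Of the listed genes that are no members, KLF1 (1.91 ± 0.43, adjusted p = 0.024), CA1 (1.91 ± 0.42, 0.0223), HBZ (1.93 ± 0.41, 0.018), JAK2 (1.10 ± 0.22, 0.0174) and TIMP3 (1.33 ± 0.34, 0.0399) rose with PIM2, and MPO, a neutrophil granule enzyme, fell (-2.55 ± 0.67, 0.0482). Among the lists that is 2 of 9 erythroid, 1 of 6 neutrophil granule, 1 of 17 transcription factor, 1 of 12 signalling and 1 of 13 granule and secreted genes, and 0 of 15 surface receptor genes. Without OCI-M1 the 229 genes passing for PIM2 became 0, while those at an unadjusted p under 0.05 were 2756, against 2996 over all units. The slopes without it, an alternative added after seeing the data, were 2.11 for KLF1, 2.42 for CA1, 2.17 for HBZ, 0.77 for JAK2, 1.04 for TIMP3 and -3.07 for MPO, with limma adjusted p from 0.0629 to 0.203. Leaving out another single line also moved the count, to 404 for KMOE-2, 125 for PL-21, 93 for SET2, 82 for F-36P, 81 for HEL and 80 for OCI-M2.
On PIM3, 3 of 10 slopes were positive, beside 54.5% of all genes, with a median of -0.47 beside 0.046 for all genes. RAB27B had -1.97 ± 0.81 (limma adjusted p = 0.188).

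**Figure D5:**
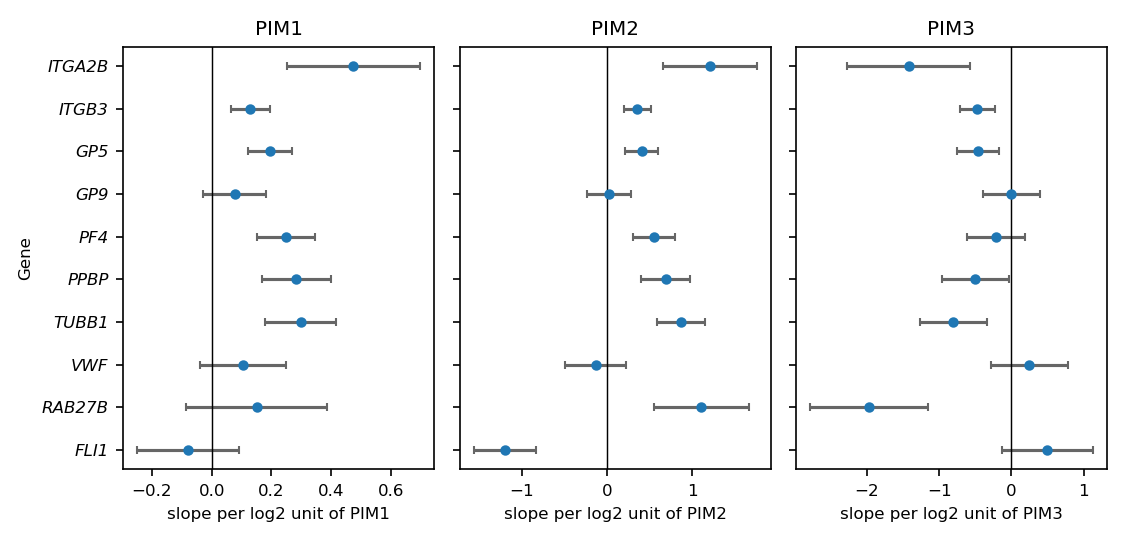
Slope of each of the 10 genes on the log2 level of PIM1, PIM2 and PIM3 over 30 units, as points with standard error bars, each panel on its own axis. The FLI1 slope on PIM2 is -1.20 ± 0.37, and 0 of 10 genes passed in any panel.

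The 4 lines with an added cytokine were set against the 23 units whose stated medium names none. By limma 0 of 10 members passed, and 0% of all 15455 genes did, while 0 members and 5.68% of genes had an unadjusted p under 0.05. FLI1 averaged 11.75 ± 0.94 in cytokine-added lines and 10.72 ± 2.30 in the others (SD, n = 4 and 23), a difference of 1.03 ± 1.10 (SE, limma adjusted p = 0.929). VWF averaged 4.73 ± 0.16 in cytokine-added lines and 5.76 ± 1.91 in the others, a difference of -1.02 ± 0.92 (limma adjusted p = 0.915). Medium and cell line cannot be told apart, since each line had 1 medium.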

How the data were processed

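The authors deposited 1 table of linear intensity per probe set, computed in Affymetrix Expression Console per the submitters' processing notes. The program version and the way probes were summarized are not given in the sources used here. Values of 54675 probe sets were converted to log2(signal + 16) and not scaled again. A single gene symbol was annotated for 41091 of them, which stand for 19775 genes. Genes above the overall median of 6.73 in at least 3 of 30 units were tested. The entry KG1? of the growth notes was taken to mean KG-1A.

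Slopes on PIM1, PIM2 and PIM3 and the cytokine difference were fitted with limma 3.58.1 in R 4.3.3 (lmFit, eBayes with trend), two-sided, over all genes, and the scripts were tested on simulated data. Plots used Python 3.11.15, pandas 2.3.3 and matplotlib 3.10.9. Alternatives were pseudocounts of 1 and 64, quantile normalization, median centring, no filter, 32 separate lines, the mean of a gene's probe sets, and leaving out arrays or units.

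The members and lists were chosen with earlier results of these data known. By rule the text could name all members, the 5 genes of highest and 3 of lowest r for 6 members, and per list the most variable, the closest to ITGA2B and those past the threshold. RAB27A, which is in the lists, and GP1BA and SELP as correlates of GP9 were named after their values were seen. The pairs of members repeated under each alternative were chosen after first values were seen. Lines are the replicates, with 1 array each, so precision is limited by how many lines there are.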

Additional observations from a re-analysis of the deposited data

How the results depend on the processing

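With PIM1, PIM3 and the added cytokines, 0 members passed under every alternative run. With PIM2 the count was 2 with quantile normalization and 5 with median centring, and 0 to 1 when 1 unit was left out. Over all genes the PIM2 count was 229, against 1738 with quantile normalization, 4091 with median centring (3532 positive, 559 negative), 159 without the filter, 123 without the arrays of high GAPDH ratio, 0 in RPMI 1640 lines alone, 0 without OCI-M1 and OCI-M2 and 0 to 404 when 1 unit was left out. The PIM3 count was 88, against 1061 with quantile normalization, 540 with 32 separate lines, 46 with median centring, 22 without the filter, 31 without NOMO-1 and GF-D8, 32 with the mean of all probe sets, 0 without the arrays of high GAPDH ratio, 0 in RPMI 1640 lines and 3 to 403 when 1 unit was left out. The PIM1 count was 1, and 0 to 3 elsewhere. The cytokine count was 0, against 4 without the arrays of high GAPDH ratio and 0 to 1 when 1 of the 4 lines with a cytokine was left out (1 without OCI-AML5). The median r of the 45 pairs was 0.192 without HEL and SET2, and 0.286 to 0.395 when 1 unit was left out. The median SD kept within 1.5 times its value.

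Slopes near 0 changed sign. On PIM1, VWF was -0.01 with a pseudocount of 1. On PIM2, GP9 was -0.04 with a pseudocount of 1, VWF 0.07 without the arrays of high GAPDH ratio, 0.15 in RPMI 1640 lines and 0.04 without OCI-M1 and OCI-M2, and FLI1 0.06 in RPMI 1640 lines and 0.01 without OCI-M1 and OCI-M2. On PIM3, GP9 was -0.01 with a pseudocount of 64, -0.09 with quantile normalization, -0.17 without NOMO-1 and GF-D8 and -0.29 in RPMI 1640 lines, where VWF was -0.11 and FLI1 -0.71. The cytokine difference of GP5 was 0.01 with quantile normalization and 0.02 with median centring. That of GP9 was 0.08 with a pseudocount of 1, 0.1 with quantile normalization and with median centring, 0.03 with 32 separate lines, 0.08 without NOMO-1 and GF-D8 and 0.0 without the arrays of high GAPDH ratio. That of PPBP was 0.31 with a pseudocount of 1, 0.09 with quantile normalization, 0.08 with median centring and 0.06 with 32 separate lines. The r of PF4 with VWF was 0.263 with a pseudocount of 1, 0.08 with the mean of all probe sets and 0.107 without HEL and SET2.

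When 1 unit was left out, signs changed in these ranges: FLI1 on PIM1 -0.16 to 0.08, GP9 on PIM2 -0.25 to 0.42, VWF on PIM2 -0.31 to 0.05, GP9 on PIM3 -0.17 to 0.3, FLI1 on PIM3 -0.05 to 0.88, and PF4 with VWF -0.048 to 0.079. For the cytokine difference they were -1.28 to 0.18 for ITGA2B, -0.39 to 0.29 for GP5, -0.3 to 0.11 for GP9, -0.39 to 0.32 for PPBP and -1.97 to 0.67 for RAB27B. The cause was not tested. The settings without HEL and SET2 and without OCI-M1 and OCI-M2 were chosen after seeing the data. No paired analysis was possible because every line is a separate sample with 1 array. Signal over background could not be judged per probe set, since no detection call was used.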
